A study of Oryza sativa with 24 samples.

Results

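Flag leaves of Fix T3, the third seed generation of a clonally propagated hybrid rice, were compared with flag leaves of CY84, the unedited hybrid. The 2 libraries of Fix T3 and the 2 libraries of CY84 were taken by their group, as 4 of 12 RNA libraries in a series of 24 samples. Fix T3 is diploid Chunyou84 with edits of REC8, PAIR1, OSD1 and MTL, as known from the study, and its plants came from seed set by selfing the founding Fix plant and its offspring. CY84 is the cross of the japonica male-sterile line Chunjiang 16 A with the indica-japonica intermediate line C84, carries no edit and had been kept by its roots. All groups share this hybrid background, the paddy field and the harvest at heading. The Fix line descends from founding plants called Fix T0, also kept by roots, and the labels do not say whether the 2 libraries of a group came from different plants. Editing, growth from seed and the generations passed therefore cannot be told apart in Fix T3 against CY84, and p-values measure the spread between libraries.

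In ordinary meiosis a hybrid reshuffles its parental alleles, and its seed progeny segregate. Loss of REC8, PAIR1 and OSD1 together turns meiosis into a mitosis-like division that yields unreduced, clonal gametes, and loss of MTL, a pollen phospholipase, lets the egg cell develop without a paternal genome. A plant with all of these edits can set clonal seed. The flag leaf is the uppermost leaf below the panicle, and in rice it is a main source of sugar for the filling grain.

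The largest group of named genes that differed was the phenylpropanoid pathway, which makes lignin precursors and flavonoids from phenylalanine. Of its 16 tested members, 8 were higher in Fix T3 and 0 were lower, with log2 differences between 1.52 and 4.43 among those that passed. Of all genes tested, 1.1% were higher and 0.673% were lower. A pathogenesis-related gene (PBZ1), an ammonium transporter gene (AMT3-2), a phosphate transporter gene (PHT1-1) and a silicon channel gene (LSI1) were also higher. The genes of nitrate reductase (NIA1), chlorophyll b reductase (NYC1) and a trehalose-phosphate phosphatase (TPP6) were lower in Fix T3.

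Levels are FPKM, which count sequenced fragments relative to gene length and to all mapped fragments of a library. Differences are Fix T3 minus CY84 on the log2(FPKM + 1) scale, which understates the change of genes at low FPKM. The test was limma, fitted on all 12 libraries, and genes were called at a Benjamini-Hochberg adjusted p under 0.05; they are said to have passed, or to be higher or lower. In whole leaves, fewer cells of a type and less RNA per cell cannot be told apart. Of 18871 genes tested, 334 (1.77%) passed, 207 (1.1%) higher and 127 (0.673%) lower in Fix T3. With no adjustment, p was under 0.05 for 1237 genes (6.56%) that lay higher and 2966 (15.7%) that lay lower. The Fix T3 libraries lay wholly above the CY84 libraries for 17.6% of the genes tested and wholly below for 46.6%. The median log2 difference over all genes was -0.26. Dividing each library by its median-of-ratios factor (0.886 and 0.914 for Fix T3, 1.1 and 1.14 for CY84) moved that median by 0.25 to -0.01, and 393 genes (2.1%) were then higher and 100 (0.535%) lower. The share of higher genes among those that passed was 62.0% before and 79.7% after this rescaling, but 29.8% with library weights, 30.5% in the 4 libraries alone and 27.5% without Fix T1 and Fix T2, so which direction held more genes depended on the setting. A difference around -0.26 is therefore that of a typical gene, and each list below is set beside that median.

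The number of genes that passed rested on single libraries. Without CY84 replicate 1, 37 genes were higher and 5 lower, and without CY84 replicate 2, 19 were higher and 3 lower. Without Fix T3 replicate 1, 47 were higher and 26 lower. Without either library of Fix T1, which enters only through the common spread, 422 were higher and 702 or 695 lower. The Fix T3 libraries correlated at r = 0.958 over the tested genes and the CY84 libraries at r = 0.982, against 0.928 to 0.933 between a library of each group.

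**Figure D1:**
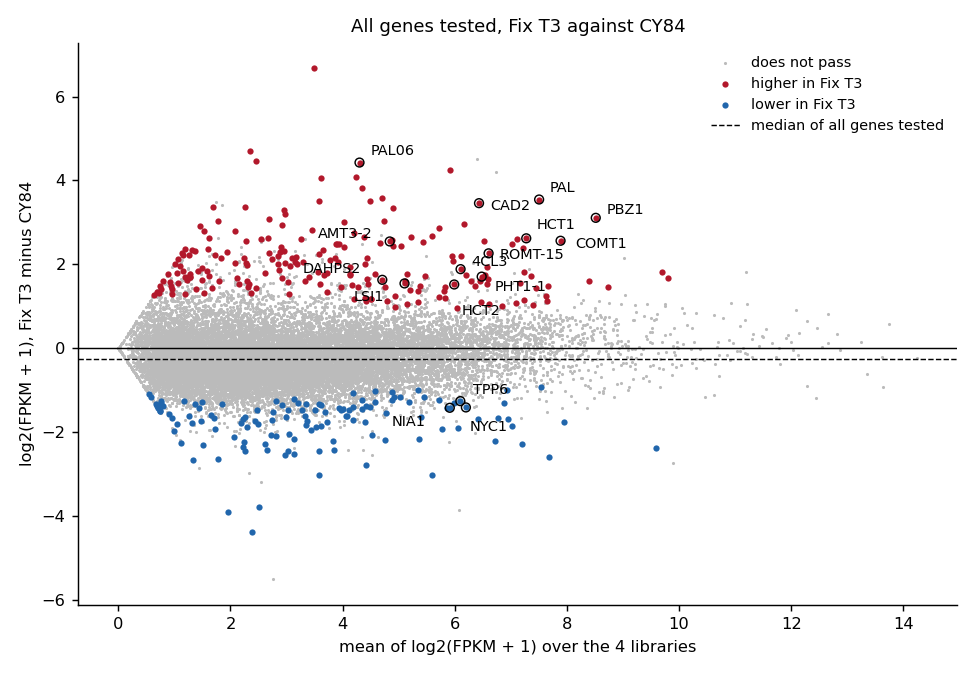
Each point is 1 of the 18871 genes tested, with its mean level over the 4 libraries on the horizontal axis and its log2 difference, Fix T3 minus CY84, on the vertical axis. The 207 higher genes are red, the 127 lower genes are blue, named genes are circled, and the dashed line is the median of all genes at -0.26.

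Genes that passed were spread over all 12 chromosomes, from 1.23% of the tested genes of chromosome 11 to 2.60% of those of chromosome 10. Among them, 28 genes (8.38%) stood in 14 pairs of neighbouring tested genes that passed in the same direction. The higher genes had a median difference of 1.84, with a median level of 29.4 FPKM in Fix T3 and 5.28 FPKM in CY84. The lower genes had a median difference of -1.64, with a median level of 4.73 FPKM in Fix T3 and 18.4 FPKM in CY84. A log2 difference of at least 2 in size was reached by 93 higher and 33 lower genes. The 2 Fix T3 libraries were within 1.5-fold of each other (on FPKM + 1) for 143 of the 207 higher and 94 of the 127 lower genes. Replicate 1 of Fix T3 was above replicate 2 for 137 of the 207 higher genes, and for 56 of the 127 lower genes. These replicate counts were not made over all genes tested, so they cannot be read as a trait of the genes that passed.

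Some genes were present in 1 group and listed at 0 in the other. Of 55801 listed genes, 19 had at least 1 FPKM in both Fix T3 libraries and 0 in both CY84 libraries, and 11 of these passed. The opposite, 0 in both Fix T3 libraries with at least 1 FPKM in both CY84 libraries, was found for 22 genes, of which 11 passed. Both sets were picked by separation of these same libraries, which by itself puts them through the filter. Their passes follow largely from the picking and are no added support. The file gives identifiers without names, and a usable name was had for 13 of the higher and 3 of the lower genes reported here. Among genes without one, LOC_Os03g02470 had the widest difference, with 104 and 121 FPKM in Fix T3 against 0 and 0.232 FPKM in CY84. LOC_Os03g18779 had 28.6 and 21.5 FPKM in Fix T3 and was listed at 0 in both CY84 libraries. These genes were high in both Fix T3 libraries and near or at 0 in both CY84 libraries (adjusted p = 4.49e-07 and 8.76e-06). In Fix T0, LOC_Os03g02470 had 24.6 and 20.5 FPKM and LOC_Os03g18779 had 0.0716 and 0.0349 FPKM. In Fix T4 they had 70.5 and 77.0 FPKM, and 18.9 and 18.4 FPKM. On the lower side, LOC_Os05g49240 had 0.299 and 0 FPKM in Fix T3 against 19.4 and 26.8 FPKM in CY84. It entered the test only through CY84, the group where it was high. LOC_Os06g08041 was listed at 0 in both Fix T3 libraries and had 17.7 and 10.9 FPKM in CY84. It was also at 0 in both Fix T0 libraries and had 0.812 and 1.59 FPKM in Fix T4. Both were as good as off in Fix T3 (adjusted p = 0.00068 and 0.000416), and all 4 of these genes passed in each of the 19 alternative settings run.

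The 4 edited genes act in the germline, and their levels in leaf say nothing about the edits. PAIR1, needed to start meiotic recombination, was listed at 0 in all 4 libraries. The names REC8, OSD1 and MTL are not in the annotation used to check names, so their identifiers come from published nomenclature only. REC8, a meiotic cohesin subunit, had 0 and 0.037 FPKM in Fix T3 against 0.0488 and 0.103 FPKM in CY84. OSD1, which carries meiosis into its second division, was listed at 0 in all 4 libraries. MTL had 0.193 and 0.664 FPKM in Fix T3 against 0.5 and 0.105 FPKM in CY84. All 4 were thus too low in every library to enter the test.

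The labelled tissue was checked by its markers. Among leaf genes, RCA, the activase of the carbon-fixing enzyme Rubisco, had 6319 and 10342 FPKM in Fix T3 against 6770 and 6073 FPKM in CY84. Of 5 checked anther markers, 4 were under 1 FPKM in all 4 libraries, C6 was at 0, and their summed level was 1.72 and 1.67 FPKM in Fix T3 against 1.96 and 2.07 FPKM in CY84. All 5 checked meiosis markers were under 1 FPKM in the 4 libraries, and of 2 seed markers GLUA1 was at 0 and GLUA2 reached 1.63 FPKM. Of the root markers, HAK1, a potassium transporter gene, had 38.2 and 46.6 FPKM in Fix T3 against 32.5 and 34.1 FPKM in CY84, and LSI1 is described below. LSI2, a further root marker, was too low to enter the test. Of 3 checked cell division markers, 2 were under 1 FPKM in the 4 libraries and PCNA reached 9.52 FPKM. The markers of other organs given here were thus low except HAK1 and LSI1. NRT2.1, a further root marker, was not included.

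Lignin and flavonoid synthesis begins with phenylalanine ammonia-lyase, which removes ammonia from phenylalanine. Its gene PAL (LOC_Os02g41630, chromosome 2) had 774 and 495 FPKM in Fix T3 against 63.6 and 42.7 FPKM in CY84. The neighbouring ammonia-lyase gene PAL06 (LOC_Os02g41680) had 131 and 62.2 FPKM in Fix T3 against 4.02 and 2.60 FPKM in CY84. Both were several times higher in each Fix T3 library than in either CY84 library, with Fix T3 replicate 1 above replicate 2. The fold of the group means was 11.9 for PAL and 29.2 for PAL06. The log2 difference was 3.55 ± 0.32 (SE) for PAL with an adjusted p of 0.000377. For PAL06 it was 4.43 ± 0.38 (SE) with an adjusted p of 0.000283. The ammonia-lyase genes of this cluster resemble each other, so the split of reads between them is uncertain.

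The next enzymes activate the acids and build the monolignol skeleton. 4CL3, a 4-coumarate CoA ligase gene, had 131 FPKM in both Fix T3 libraries against 38.5 and 31.4 FPKM in CY84, a difference of 1.89 ± 0.34 (SE, adjusted p = 0.0203). HCT1, a hydroxycinnamoyltransferase gene, had 493 and 297 FPKM in Fix T3 against 68.6 and 55.0 FPKM in CY84. HCT2, of the same family, had 108 and 105 FPKM in Fix T3 against 38.7 and 34.5 FPKM in CY84. In all of these the Fix T3 libraries lay clear of the CY84 libraries, HCT1 with the wider gap (2.62 ± 0.30, adjusted p = 0.00154) and HCT2 with the narrower (1.52 ± 0.31, adjusted p = 0.0345). Of the 19 alternative settings run, 4CL3 passed in 14 and HCT2 in 9.

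Methylation and reduction complete the monolignols. COMT1, the caffeic acid O-methyltransferase gene, had 588 and 560 FPKM in Fix T3 against 92.7 and 100 FPKM in CY84. ROMT-15, a caffeoyl-CoA O-methyltransferase gene chosen after its values were seen, had 193 and 233 FPKM in Fix T3 against 40.7 and 46.2 FPKM in CY84. CAD2, the cinnamyl alcohol dehydrogenase gene behind the gold hull and internode mutants, had 368 and 221 FPKM in Fix T3 against 25.4 and 24.7 FPKM in CY84. The 3 genes stood apart between the groups, and COMT1 was close to equal within each of them. Their log2 differences were 2.56 ± 0.30 for COMT1, 2.26 ± 0.29 for ROMT-15 and 3.46 ± 0.44 for CAD2 (SE), with adjusted p of 0.00182, 0.00294 and 0.00294.

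The other 8 tested members did not pass, and they lay on both sides of CY84. CAD1, a second alcohol dehydrogenase gene, had 11.3 and 15.1 FPKM in Fix T3 against 30.0 and 32.9 FPKM in CY84, a difference of -1.20 that did not pass (adjusted p = 0.127). 4CL4 had 10.6 and 15.3 FPKM in Fix T3 against 21.6 and 19.5 FPKM in CY84, and 4CL1 and CHS1, the chalcone synthase gene, stayed under 2 FPKM in all 4 libraries. ROMT-17, also chosen after its values were seen, had 28.4 and 8.97 FPKM in Fix T3 against 25.4 and 29.2 FPKM in CY84, so that its groups overlapped. CHI, the chalcone isomerase gene at the entry to the flavonoids, had 628 and 330 FPKM in Fix T3 against 179 and 194 FPKM in CY84. 4CL5 had 7.07 and 5.21 FPKM in Fix T3 against 1.66 and 1.34 FPKM in CY84. In CHI and 4CL5 every Fix T3 library was above every CY84 library, but neither passed (adjusted p = 0.0748 and 0.0755).

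Over the whole list the median log2 difference was 1.51, beside -0.26 over all genes, and 50.0% of the 16 tested members were higher against 1.1% of all genes. Without the 2 members added later, 7 of 14 were higher with the same median. The names and the list were chosen with earlier results of these data known, so the count describes these genes and is no independent evidence. After rescaling, 9 members were higher and the median was 1.78. Leaving out CY84 replicate 1 left 5 members higher, and leaving out CY84 replicate 2 left 4, which were PAL, PAL06, HCT1 and COMT1. These 4 passed in all 19 alternative settings, and CAD2 in 18 of them, missing only without CY84 replicate 2 (adjusted p = 0.0592). DAHPS2, a gene for the first enzyme of the shikimate pathway that feeds phenylalanine synthesis, was also chosen after its values were seen. It had 66.1 and 30.5 FPKM in Fix T3 against 15.1 and 12.7 FPKM in CY84 (1.63 ± 0.35, adjusted p = 0.0386), and passed in 10 of the 19 settings.

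**Figure D2:**
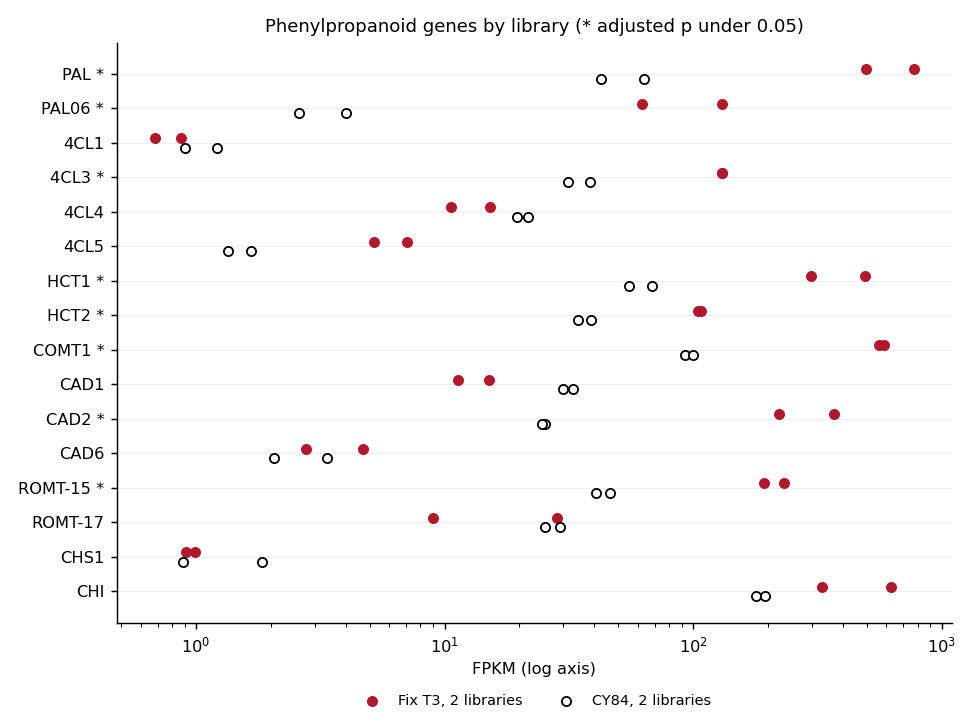
FPKM, on a log axis, of the 16 tested phenylpropanoid genes in the 2 Fix T3 libraries (red) and the 2 CY84 libraries (open), in pathway order from PAL at the top. The 8 starred genes passed, and for each of them both Fix T3 libraries lie to the right of both CY84 libraries, as they do for 4CL5 and CHI, which did not pass.

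In the defence list, 1 of 14 tested members passed, beside 1.1% of all genes that were higher, and the list's median difference was -0.01. The member was PBZ1 (LOC_Os12g36880), a PR10-type pathogenesis-related gene known to respond to probenazole and to blast infection. It had 1853 and 621 FPKM in Fix T3 against 90.4 and 169 FPKM in CY84. The groups did not overlap, but the Fix T3 libraries themselves stood apart by 2.98-fold, and the difference of 3.11 ± 0.50 (SE, adjusted p = 0.0109) did not pass without Fix T3 replicate 1, without either CY84 library or without the filter on low values. The chitinase genes CHT8 and CHT1 were high in Fix T3 replicate 1 only. CHT8 had 107 and 11.3 FPKM in Fix T3 against 9.98 and 15.3 FPKM in CY84, and CHT1 had 19.9 and 3.74 FPKM in Fix T3 against 2.32 and 4.46 FPKM in CY84. RBOHB, a gene for an NADPH oxidase of the oxidative burst, had 32.7 and 19.9 FPKM in Fix T3 against 56.1 and 53.7 FPKM in CY84, and did not pass (adjusted p = 0.127).

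The diterpenoid phytoalexins momilactone and phytocassane are antimicrobial compounds of rice, and 0 of the 10 tested members of their synthesis list passed in limma. At p under 0.05 in limma before adjustment, 4 lay above and 0 below, beside 6.56% and 15.7% of all genes. MAS, the momilactone synthase gene, had 18.4 and 2.82 FPKM in Fix T3 against 0.383 FPKM in both CY84 libraries. CPS4, the cyclase gene at the start of the momilactone branch, had 4.65 and 1.05 FPKM in Fix T3 against 0.0383 and 0.108 FPKM in CY84. CYP71Z7, a cytochrome P450 gene of the phytocassane branch, had 12.6 and 6.24 FPKM in Fix T3 against 3.08 and 2.14 FPKM in CY84. All 3 were higher in both Fix T3 libraries, again with replicate 1 above replicate 2, and missed the threshold (adjusted p = 0.0579, 0.0602 and 0.0815). After rescaling they passed, with adjusted p of 0.0411, 0.0484 and 0.0244. The CPS2 and KSL7 genes of the phytocassane branch overlapped between the groups, and the list's median difference was 0.36.

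Of the jasmonate list, which holds synthesis genes and the JAZ repressors, 0 of 18 tested members passed in limma, and its median difference was 0.01. At p under 0.05 in limma before adjustment, 1 lay above and 2 below, beside 6.56% and 15.7% of all genes. The JAZ gene TIFY3 had 38.7 and 42.0 FPKM in Fix T3 against 71.1 and 79.0 FPKM in CY84 (adjusted p = 0.0762).

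Transporters of mineral nutrients were among the higher genes. AMT3-2 (LOC_Os03g62200), an ammonium transporter gene chosen after its values were seen, had 78.3 and 59.4 FPKM in Fix T3 against 10.8 and 10.9 FPKM in CY84. PHT1-1 (LOC_Os03g05620), a phosphate transporter gene, had 148 and 174 FPKM in Fix T3 against 48.1 and 48.7 FPKM in CY84. LSI1 (LOC_Os02g51110), a silicic acid channel gene best known from roots, had 52.9 and 63.0 FPKM in Fix T3 against 18.6 and 19.6 FPKM in CY84. All 3 were close to equal in the CY84 pair and several times higher in both Fix T3 libraries. The log2 differences were 2.55 ± 0.35 for AMT3-2 (adjusted p = 0.00457), 1.71 ± 0.23 for PHT1-1 (adjusted p = 0.00395) and 1.55 ± 0.29 for LSI1 (adjusted p = 0.0247). AMT3-2 and PHT1-1 lost the call without either CY84 library, AMT3-2 also without Fix T3 replicate 1, and LSI1 lost it in 7 of the 19 settings. The part of root-type transcripts in the LSI1 difference was not tested. HAK1, another root marker, differed by 0.33 and did not pass in limma (adjusted p = 0.429), and LSI2 was too low to enter the test.

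Within the phosphate list, PHT1-1 was the 1 of 13 tested members that passed, beside 1.1% of all genes that were higher and 0.673% that were lower. PHT1-8, a second transporter gene, had 63.8 and 65.7 FPKM in Fix T3 against 24.1 and 28.2 FPKM in CY84, a difference of 1.28 that did not pass (adjusted p = 0.203). The phosphate starvation sensor genes SPX1 and SPX4 overlapped between the groups, SPX2 had 38.3 and 66.2 FPKM in Fix T3 against 28.1 and 37.0 FPKM in CY84, and the median of the list was 0.11. The second silicon transporter gene tested, LSI6, had 56.6 and 27.4 FPKM in Fix T3 against 26.6 and 28 FPKM in CY84 and did not pass.

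In the nitrogen list, 1 of 11 tested members was higher (AMT3-2) and 1 was lower, beside 1.1% and 0.673% of all genes. The median was 0.10. AMT3-2 was added after its values were seen, and no member of the list as first written was higher. The lower one was NIA1 (LOC_Os08g36480), a gene of nitrate reductase, which reduces nitrate to nitrite. It had 27.2 and 47.1 FPKM in Fix T3 against 80.5 and 118 FPKM in CY84. Both Fix T3 libraries were below both CY84 libraries, each pair being uneven, and the difference was -1.42 ± 0.31 (SE, adjusted p = 0.0414). It did not pass after rescaling (-1.11, adjusted p = 0.0834), and passed in 9 of the 19 settings. A neighbouring, similar nitrate reductase gene makes its read count less certain. GLN1-1, the cytosolic glutamine synthetase gene, had 429 and 447 FPKM in Fix T3 against 294 and 338 FPKM in CY84, while FD-GOGAT, the ferredoxin-dependent glutamate synthase gene, had 138 and 136 FPKM in Fix T3 against 215 and 203 FPKM in CY84. Neither passed.

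Of 4 tested genes of chlorophyll breakdown, 1 was lower, beside 0.673% of all genes. This was NYC1 (LOC_Os01g12710), which encodes a subunit of chlorophyll b reductase. It had 42.5 and 45.6 FPKM in Fix T3 against 122 and 115 FPKM in CY84, a fall to 0.371 of the CY84 mean with both pairs close together. The difference was -1.41 ± 0.28 (SE, adjusted p = 0.0304), and of the 3 named lower genes it was the only one that also passed after rescaling (-1.10, adjusted p = 0.0302). It passed in 11 of the 19 settings. NOL, the partner subunit, had 1.71 and 1.39 FPKM in Fix T3 against 5.35 and 3.73 FPKM in CY84 and did not pass (adjusted p = 0.114). SGR, the stay-green gene for a magnesium dechelatase, had 5.19 and 40.2 FPKM in Fix T3 against 19.9 and 37.1 FPKM in CY84, and RCCR1 had 3.60 and 21.3 FPKM in Fix T3 against 16.7 and 14.8 FPKM in CY84. In both of these the Fix T3 libraries differed from each other by more than the group means did. The median of the 4 was -0.96.

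Of 11 flowering time genes reported here, 0 passed in limma, and their median difference was -0.56. At p under 0.05 in limma before adjustment, 0 lay above and 4 below, beside 6.56% and 15.7% of all genes. HD3A, the gene of a florigen made in the leaf, had 59.7 and 40.0 FPKM in Fix T3 against 70.9 and 82.3 FPKM in CY84 (adjusted p = 0.406). MADS18, a florigen target in the meristem, had 29.8 and 22.1 FPKM in Fix T3 against 71.8 and 79.0 FPKM in CY84 (adjusted p = 0.0777). MADS14, of the same family, had 69.4 and 117 FPKM in Fix T3 against 216 and 196 FPKM in CY84 (adjusted p = 0.129). These 3 were lower in each Fix T3 library than in either CY84 library, as were 8 of the 11, against 46.6% of all genes.

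Of the circadian clock genes 0 of 8 passed in limma, and their median difference of -0.85 was well below that of all genes. At p under 0.05 in limma before adjustment, 0 lay above and 4 below, beside 6.56% and 15.7% of all genes. PRR95, a pseudo-response regulator gene, had 145 and 147 FPKM in Fix T3 against 420 and 370 FPKM in CY84. PRR73 had 33.5 and 25.4 FPKM in Fix T3 against 78.3 and 82.5 FPKM in CY84, and LHY, a morning factor, had 19.6 and 30.5 FPKM in Fix T3 against 57.3 and 60.3 FPKM in CY84. For 7 of the 8 the groups did not overlap and Fix T3 was lower, against 46.6% of all genes, and LUX was the exception, with 12.3 and 12.5 FPKM in Fix T3 against 9.69 and 6.73 FPKM in CY84. The adjusted p of PRR95, PRR73 and LHY were 0.117, 0.155 and 0.130. The labels do not give the hour of harvest.

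TPP6 (LOC_Os08g31630), a trehalose-6-phosphate phosphatase gene chosen after its values were seen, had 43.3 FPKM in both Fix T3 libraries against 105 FPKM in both CY84 libraries. Its difference of -1.26 ± 0.23 (SE, adjusted p = 0.0209) did not pass after rescaling (-0.95, adjusted p = 0.0913), and it passed in 14 of the 19 settings. SSI, a soluble starch synthase gene, had 15.6 and 22.0 FPKM in Fix T3 against 34.7 and 44.9 FPKM in CY84 and just missed the threshold (-1.05, adjusted p = 0.0528). The sucrose transporter gene SUT1 had 17.5 and 23.9 FPKM in Fix T3 against 13.5 and 14.5 FPKM in CY84 and did not pass (adjusted p = 0.263). Of 13 tested sucrose and starch genes, TPP6 alone passed, beside 0.673% of all genes that were lower, and the median was -0.47. No member of the list as first written passed.

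Besides SSI, TIFY3 and MADS18, the lower genes closest to the threshold were CKX9 and DCL4. CKX9, a cytokinin oxidase gene, had 0.808 and 0.656 FPKM in Fix T3 against 3.25 and 2.04 FPKM in CY84 (adjusted p = 0.0889). DCL4, a Dicer-like gene of small RNA production, had 1.73 and 0.956 FPKM in Fix T3 against 4.27 and 4.71 FPKM in CY84 (adjusted p = 0.0905). Fix T3 was lower in both libraries for both, at low levels.

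No member of the remaining lists passed in limma in either direction. Of all genes, 6.56% lay above and 15.7% below at an unadjusted limma p under 0.05, the cut used for the counts in brackets. The medians were 0.37 for 9 aquaporin genes (3 above and 0 below at p under 0.05 before adjustment), 0.21 for 12 antioxidant enzyme genes (5 and 0), 0.23 for 6 Calvin cycle and photorespiration genes (0 and 0), 0.09 for 10 chlorophyll synthesis genes (1 and 0) and -0.06 for 9 light reaction genes (1 and 1). They were -0.06 for 12 cold and dehydration genes (0 and 0), -0.14 for 5 heat shock genes (0 and 0) and -0.20 for 11 cytokinin genes (0 and 4). For 12 DNA methylation and small RNA genes the median was -0.34 (0 and 2), and for 13 abscisic acid genes -0.42 (0 and 2). The water channel gene PIP1-3 came closest, with 664 and 773 FPKM in Fix T3 against 352 and 337 FPKM in CY84 (1.05, adjusted p = 0.0528). CATA, a catalase gene, had 1370 and 1131 FPKM in Fix T3 against 589 and 600 FPKM in CY84 (adjusted p = 0.158). FDX1, a ferredoxin gene, had 1106 and 1078 FPKM in Fix T3 against 908 and 66.5 FPKM in CY84, so that 1 CY84 library set its difference of 2.14.

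**Figure D3:**
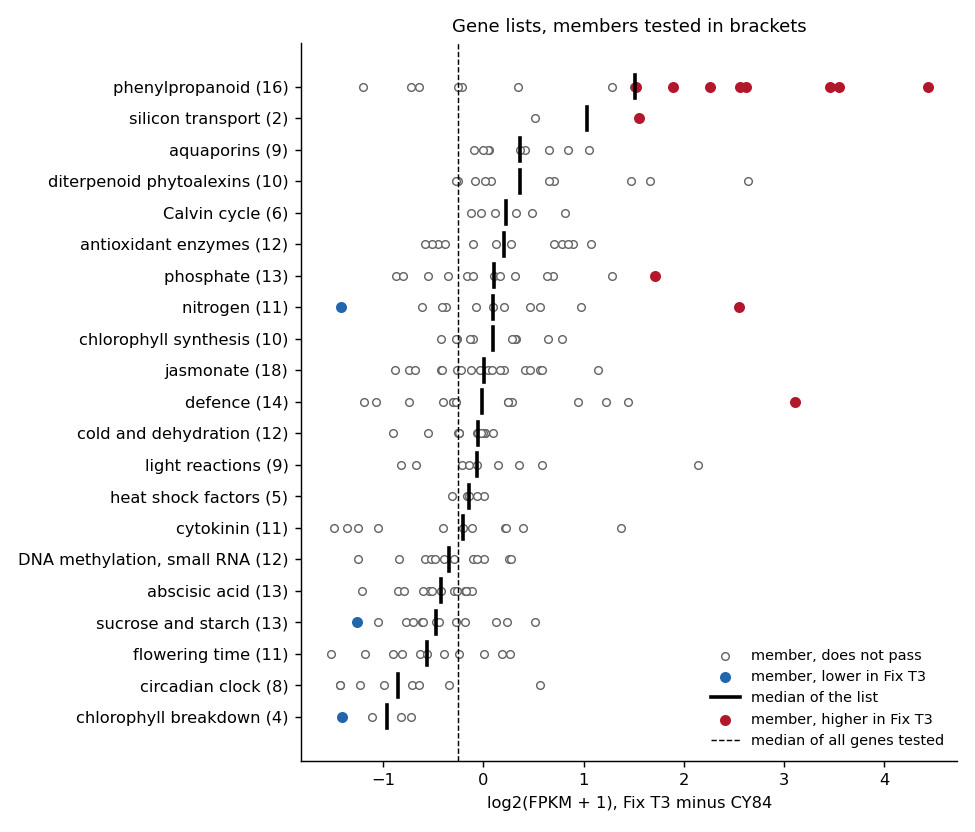
Log2 differences, Fix T3 minus CY84, of the tested members of 21 gene lists, ordered by their medians (bars), with the number of members in brackets and the median of all genes as a dashed line. Filled points passed: 8 phenylpropanoid genes stand to the right, and a single member each passed on the lower side in the lists of nitrogen, sucrose and starch, and chlorophyll breakdown. Among the filled points, ROMT-15, AMT3-2 and TPP6 were added to their lists after their values were seen. The list labelled heat shock factors also holds heat shock protein genes.

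Fix T3 was also set against the founding plants, Fix T0, which carry the same edits and had been kept by their roots like CY84. In this comparison 55 genes (0.291%) passed, 41 (0.217%) higher and 14 (0.0742%) lower in Fix T3. The named ones were PAL06, CAD2, PAL, HCT1, COMT1, ROMT-15 and PHT1-1, all higher. PAL06 had 131 and 62.2 FPKM in Fix T3 against 9.40 and 4.99 FPKM in Fix T0, a difference of 3.53 ± 0.38 (SE, adjusted p = 0.00267). CAD2 had 368 and 221 FPKM in Fix T3 against 46.8 and 31.0 FPKM in Fix T0 (2.87 ± 0.44, adjusted p = 0.0172). PAL had 774 and 495 FPKM in Fix T3 against 150 and 89.5 FPKM in Fix T0 (2.41 ± 0.32, adjusted p = 0.00813). For these genes the Fix T0 libraries lay nearer to CY84 than to Fix T3. HCT1, COMT1, ROMT-15 and PHT1-1 differed by 2.09, 1.91, 1.81 and 1.62, with adjusted p of 0.0105, 0.0185, 0.0204 and 0.0105. PHT1-1 had 148 and 174 FPKM in Fix T3 against 49.5 and 53.5 FPKM in Fix T0. Of 18 alternative settings, PAL06 passed in 17, PAL in 16, HCT1 in 15, CAD2 and PHT1-1 in 14, and COMT1 and ROMT-15 in 13. Leaving out Fix T0 replicate 1 left 5 higher and 3 lower genes here, leaving out its replicate 2 left 3 of each, and leaving out Fix T3 replicate 1 left 9 higher and 10 lower. Leaving out a Fix T1 library gave 142 higher and 193 lower genes for replicate 1 and 141 and 188 for replicate 2, and without either Fix T2 library 31 were lower. Lower genes also outnumbered higher ones with library weights, at 278 higher and 473 lower.

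No gene with a usable name was lower than Fix T0 at the threshold. Of the 5 with the smallest p, the cytokinin response regulator genes RR9 and RR10, SSI, LHY and TIFY3, each passed without Fix T1 and Fix T2, and all but SSI with library weights, which were the only passes in 18 settings (adjusted p between 0.017 and 0.631). For the 3 named genes that were lower in Fix T3 than in CY84, Fix T0 stood between the other 2 groups or at the level of Fix T3. NYC1 had 87.0 and 79.8 FPKM in Fix T0, TPP6 had 67.1 and 57.6 FPKM and NIA1 had 45.4 and 48.5 FPKM. None of the 3 passed between Fix T3 and Fix T0 (adjusted p = 0.182, 0.298 and 0.536). LSI1, with 44.5 and 39.7 FPKM in Fix T0, and PBZ1, with 214 and 282 FPKM there, did not pass either (adjusted p = 0.443 and 0.102).

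Against the next seed generation, Fix T4, 34 genes (0.18%) passed, 1 (0.0053%) higher and 33 (0.175%) lower in Fix T3. This count moved widely with the setting. Without Fix T1 replicate 1, 39 genes were higher and 1073 lower, without its replicate 2, 39 and 1056, and with library weights 71 and 1278. Without Fix T3 replicate 1 or 2, 12 or 7 genes were lower, without either Fix T4 library 10, without either CY84 library 18 and without either Fix T0 library 20. None of the 16 named genes that passed against CY84 was among the 34, though NYC1 was lower in 4 of 18 alternative settings. PAL06 had 131 and 62.2 FPKM in Fix T3 against 33.0 and 47.8 FPKM in Fix T4 (1.17, adjusted p = 0.134), and COMT1 had 588 and 560 FPKM in Fix T3 against 374 and 544 FPKM in Fix T4 (0.35, adjusted p = 0.475). The lower genes with names were DREB1 factor genes, which switch on cold-response genes, and ABA8OX1, a gene for an abscisic acid 8'-hydroxylase. DREB1B had 0 and 0.836 FPKM in Fix T3 against 42.0 and 36.3 FPKM in Fix T4. DREB1A had 0.865 and 0.667 FPKM in Fix T3 against 25.0 and 21.5 FPKM in Fix T4, and ABA8OX1 had 1.83 and 1.55 FPKM in Fix T3 against 12.1 and 9 FPKM in Fix T4. These genes were near 0 or low in Fix T3 and well expressed in both Fix T4 libraries, with differences of -4.88, -3.78 and -2.09 (adjusted p = 0.00496, 0.00272 and 0.0118). DREB1H, DREB1G and DREB1E passed with adjusted p up to 0.0233. They met the filter of 1 FPKM in 2 libraries only through Fix T4, where they were high, so their passes are partly built in. All 6 lost the call with a pseudocount of 0.1. Of 18 settings DREB1A passed in 16, DREB1B in 15, DREB1H and DREB1G in 14, ABA8OX1 in 13 and DREB1E in 9, and each lost the call without 1 or more libraries of Fix T3 or Fix T4. Between Fix T3 and CY84 the same genes differed by at most 0.16 in size.

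Set along the generations, the higher genes were not equally high in every seed-grown group. PAL had means of 53.1 FPKM in CY84, 120 FPKM in Fix T0, 291 FPKM in Fix T1, 61.4 FPKM in Fix T2, 635 FPKM in Fix T3 and 334 FPKM in Fix T4. PHT1-1, 4CL3 and CAD2 likewise had their lowest seed-grown mean in Fix T2 and their highest mean in Fix T3, with 161, 131 and 295 FPKM there. Fix T2 levels of PAL, 64.6 and 58.1 FPKM, were close to those of CY84. PBZ1 also had its lowest seed-grown mean in Fix T2 (866 FPKM) and its highest in Fix T3 (1237 FPKM). PBZ1 and LSI1 did not fall close to CY84 in Fix T2. PBZ1 had 764 and 968 FPKM there against 90.4 and 169 FPKM in CY84, and LSI1 had 40.5 and 57.1 FPKM in Fix T2. The comparisons of other Fix generations with CY84 share its 2 libraries with the comparison described here, so their values are given side by side only: the log2 difference of PAL from CY84 was 1.14 in Fix T0, 3.55 in Fix T3 and 2.63 in Fix T4, and that of NIA1 was -1.04, -1.42 and -1.60.

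**Figure D4:**
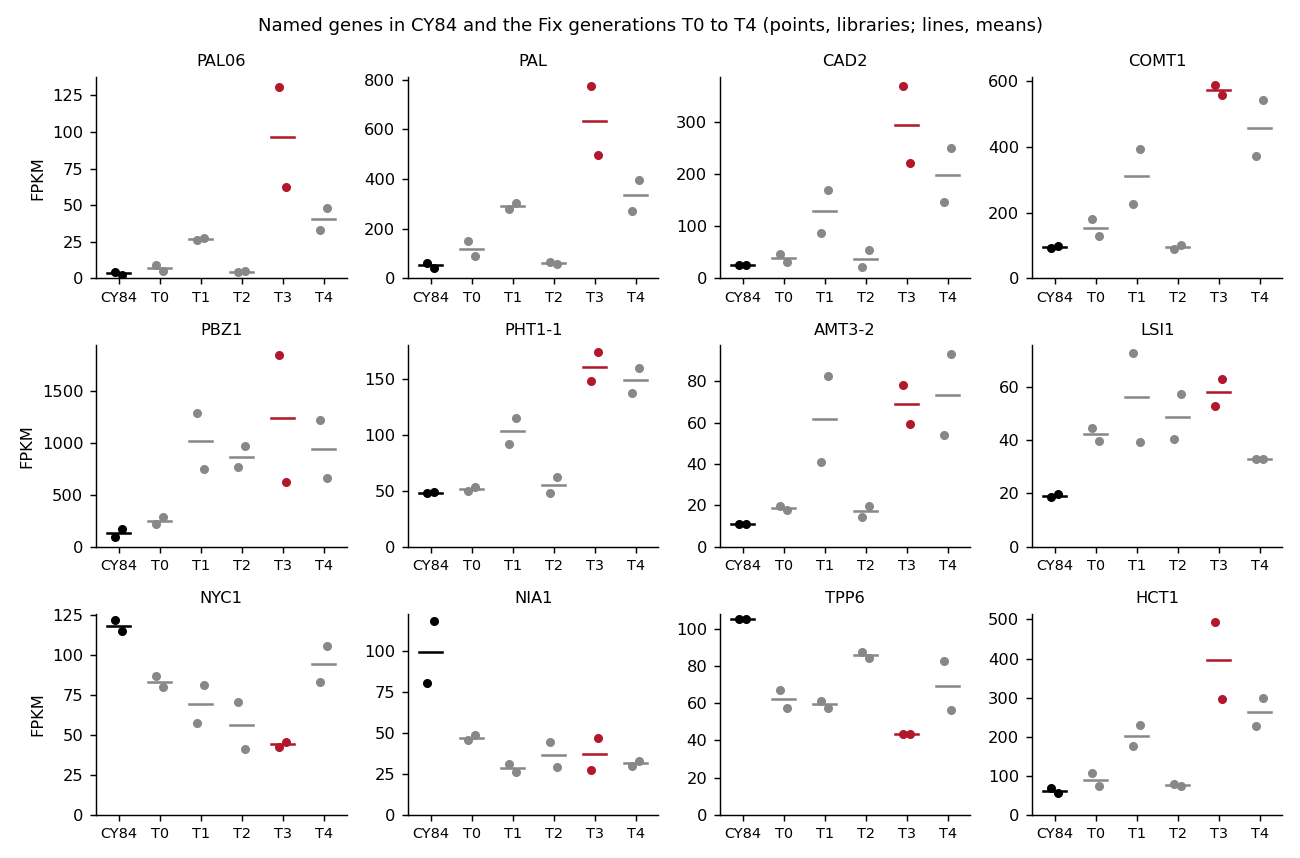
FPKM of 12 named genes in CY84 and in Fix T0, T1, T2, T3 and T4, with 2 libraries a group as points and their mean as a line; Fix T3 is red and CY84 black. PAL06, PAL, CAD2, COMT1 and HCT1 are highest in Fix T3 and low in CY84, T0 and T2, while NYC1 and TPP6 are lowest in Fix T3.

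**Figure D5:**
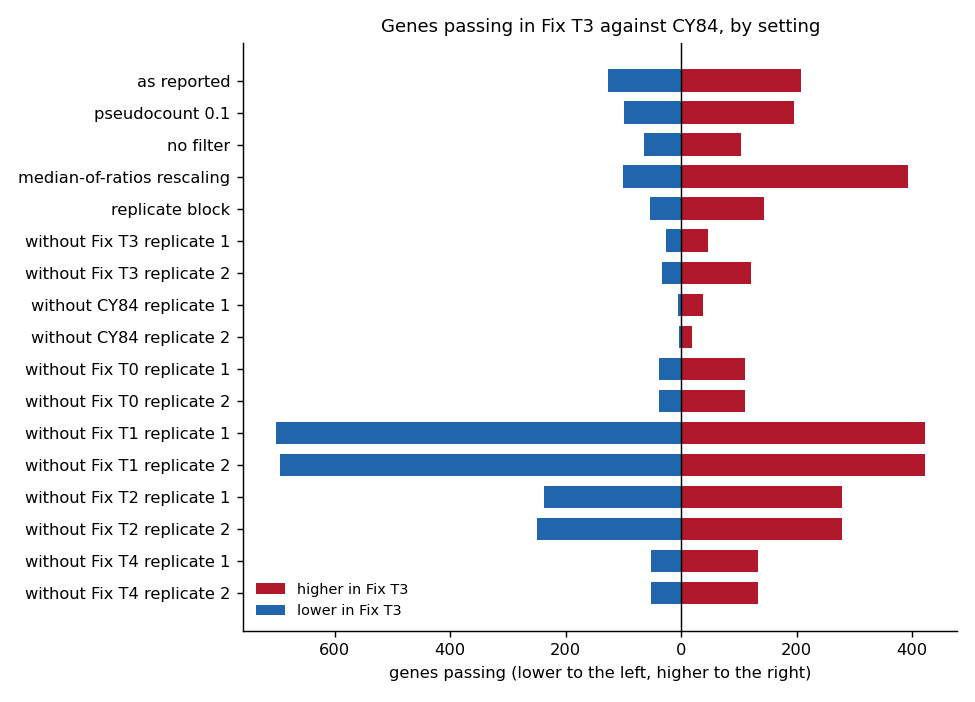
Number of genes that passed in Fix T3 against CY84 under the reported setting and 16 of the alternatives, with lower genes to the left and higher genes to the right. Leaving out a CY84 library gives the shortest bars, with 37 or 19 higher genes, and leaving out a Fix T1 library the longest, with 422.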

How the data were processed

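The authors deposited 1 table of FPKM per gene with a column for each of 12 RNA libraries. The submitters' processing notes list HISAT2 2.1.0, featureCounts 1.6.4, StringTie 1.3.4d, Trimmomatic 0.39, DESeq2 1.30.1, Bismark 0.23.0, FastQC and fastp; the step of each and the genome build are not given in the sources used here. A further 20 columns without a name were left out, as were the 12 bisulfite samples. Read counts were not used, so depth is known only relatively: low FPKM values put the libraries between 0.674 and 1 times CY84 replicate 1, and no counting interval is given. Summed FPKM was 713940 and 699070 in Fix T3 and 691497 and 700192 in CY84.

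Of 55801 listed genes, the 18871 with at least 1 FPKM in at least 2 of the 12 libraries were tested. limma 3.58.1 in R 4.3.3 was fitted on log2(FPKM + 1) with a mean per group over 6 groups, a trended prior and 6 residual degrees of freedom, and checked on simulated data. The spread is shared by all groups. Of 434 names paired by hand with identifiers from published nomenclature, 291 were found in the RefSeq annotation on the same chromosome and in the same gene order (median distance 0.016 Mb), and only these were used, except for 3 of the edited genes. Named genes passed, differed by at least 1 on the log2 scale, reached a mean of 5 FPKM in a group and did not overlap; where fewer than 5 passed in a direction, the 5 with the smallest p were added as not passing. The members, lists, comparisons and names were chosen with earlier results of these data known. No promoter or protein sequences were used here, and a gene that the rule names is not reported here.

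Equal replicate numbers were not taken to mark paired libraries. The correlation of deviations was over 0.1 in 2 of 15 group pairs and below -0.1 in others, such as -0.229 for Fix T0 with Fix T1. With 2 libraries a group it cannot settle whether libraries were paired. This correlation was -0.00132 for Fix T3 with CY84. It was highest at 0.193 for Fix T3 with Fix T4 and lowest at -0.304 for Fix T0 with Fix T2. Alternatives were a pseudocount of 0.1, no filter, median-of-ratios rescaling, a replicate block, library weights, the 4 libraries alone, leaving out Fix T1 and Fix T2 together, and leaving out each library; for Fix T3 against Fix T0 or Fix T4, library weights and leaving out libraries of other groups were added after seeing the data.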

Additional observations from a re-analysis of the deposited data

Results flagged for a closer look

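Genes were picked out here because their difference of Fix T3 from CY84 differed, by the direct contrast in limma, from that of another Fix generation. The log2 difference, Fix T3 minus Fix T0, was 3.53 for PAL06, 2.87 for CAD2, 2.41 for PAL, 2.09 for HCT1, 1.91 for COMT1, 1.81 for ROMT-15 and 1.62 for PHT1-1 (adjusted p between 0.00267 and 0.0204). All 7 were higher in both Fix T3 libraries than in both Fix T0 libraries. That separation follows largely from how the genes were picked and is no added support.

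Fix T3 minus Fix T4 was -4.88 for DREB1B, -3.78 for DREB1A, -2.82 for DREB1H, -2.09 for ABA8OX1, -1.95 for DREB1G and -1.83 for DREB1E (adjusted p between 0.00272 and 0.0233). All 6 were lower in both Fix T3 libraries than in both Fix T4 libraries, which again follows largely from how they were picked. DREB1H, DREB1G and DREB1E also entered the test only through Fix T4, the group where they were high.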

How the results depend on the processing

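None of the 1105 gene values under alternative settings changed direction, while 148 lost and 64 gained the call. Of the 16 named genes of Fix T3 against CY84, 14 passed after rescaling, 12 with the replicate block, 9 without the filter, 5 and 4 without CY84 replicate 1 or 2 and 7 without Fix T3 replicate 1. Higher and lower genes in Fix T3 against CY84 numbered 103 and 64 without the filter, 885 and 2081 with library weights, 556 and 1269 in the 4 libraries alone and 902 and 2381 without Fix T1 and Fix T2. Rescaling gave 393 higher genes, and the replicate block, with numbers not known to pair the libraries, gave 143 higher and 54 lower. Leaving out 1 library gave 19 to 422 higher and 3 to 702 lower genes, and 4 to 10 phenylpropanoid genes. For Fix T3 against Fix T0, rescaling gave 128 higher and 24 lower genes, no filter 23 lower, library weights 278 and 473, leaving out Fix T1 and Fix T2 457 and 1171, and leaving out 1 library 3 to 142 higher and 3 to 193 lower. For Fix T3 against Fix T4 a pseudocount of 0.1 gave 0 higher and 0 lower genes in limma (382 and 3748 at an unadjusted p under 0.05), no filter 7 higher, rescaling 16 lower, the replicate block 0 higher (359 at an unadjusted p under 0.05), library weights 71 higher and 1278 lower, leaving out Fix T1 and Fix T2 280 and 3406, and leaving out 1 library 0 to 39 higher and 7 to 1073 lower. For the comparisons with Fix T0 and Fix T4, library weights and leaving out libraries of other groups were chosen after seeing the data. The cause of these changes was not tested. Total reads were not used, so depth limits on genes near 0 FPKM could not be set.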
